A study of Mus musculus with 23 samples.

Results

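A set of 32 genes of microglia and macrophages was followed through the transcriptome of cortical astrocytes isolated for RNA-seq. The members were named by symbol, and all 32 were found among the 24411 gene symbols of the count table. Their levels were described across the 4 groups of mice and across the 2 forms of library name in the labels, in which 6 libraries carry the name Astro with a number and 17 carry a number only (numbered libraries).

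RNA was measured in 23 libraries of cells taken from the cerebral cortex with magnetic beads against the astrocyte surface antigen ACSA-2. The mice were male, every group was homozygous for a floxed Aldh7a1 gene (Aldh7a1 Flox/Flox), and every group received 4-hydroxytamoxifen at postnatal days 3 to 4 and was collected at postnatal day 70. In ConAstro mice (n = 4) no Cre recombinase was present. In cKOAstro mice (n = 7) 1 allele of Slc1a3 carried a tamoxifen-inducible Cre (Slc1a3-CreER/+), so that recombination follows the Slc1a3 promoter, which astrocytes use. From postnatal day 21 the remaining groups, SFN-fed ConAstro (n = 5) without Cre and SFN-fed cKOAstro (n = 7) with it, ate sulforaphane (SFN), which activates NRF2, and the first pair of groups ate a control diet.

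Microglia are the resident macrophages of the brain parenchyma. They arise from yolk sac progenitors, depend on signalling through the receptor CSF1R, and survey the tissue with processes guided by receptors for nucleotides and for the chemokine fractalkine. Border-associated macrophages lie along vessels and in the meninges and are told from microglia by scavenger receptors such as CD163 and the mannose receptor. Neither cell type is the target of a sort for ACSA-2. In bulk libraries fewer cells and less RNA per cell cannot be told apart.

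Total counts lay between 46890715 and 391701247 per library. Aldh7a1 lay at 43.0 to 77.2 CPM (read counts normalised to library size) in every library labelled cKOAstro or SFN-fed cKOAstro but 1 and at 177 to 226 CPM in every library labelled ConAstro or SFN-fed ConAstro but 1. The exceptions were the libraries labelled as replicate 1 of SFN-fed ConAstro, at 55.7 CPM, and as replicate 2 of SFN-fed cKOAstro, at 222 CPM. Slc1a3 and Esr1 in these 2 libraries were also nearer to the levels of the other genotype, with Slc1a3 at 2100 and Esr1 at 19.96 CPM in the former and Slc1a3 at 4436 and Esr1 at 0.533 CPM in the latter. Results that rest on them are given with and without them. A different library, cKOAstro replicate 2, is labelled male and held Xist at 1541 CPM, against 0.706 CPM or less in the others. Astrocyte markers were abundant, with a summed level of 2447 to 4087 CPM per kilobase of exon over 10 genes, and 10 oligodendrocyte genes reached 5343 to 13744 on the same scale. Per kilobase, the 32 genes summed to between 6.90% and 72.1% of the astrocyte list.

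The transcription factor PU.1, product of the member Spi1, is known to control many genes of macrophages, and the letters GAGGAAGT are a common form of its binding sequence. Promoters (250 bases before to 50 after the start site, RefSeq, GRCm38.p6) were held for 25 of the 32 members, and 5 of these members (20%) had the letters GAGGAAGT on either strand. Of 27025 genes with a promoter in the same collection, 3.69% had them. The windows of 30 bases around these matches are shown because they are the stretches of the members' promoters that carry the letters, printed along the strand of the gene, with the match in capitals (ACTTCCTC where it lies on the opposite strand).
Inpp5d: gtttctataatGAGGAAGTtctgtgcagct
Ctss: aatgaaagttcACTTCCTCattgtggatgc
Cd53: cactcagtctcACTTCCTCactcttctcgc
C1qc: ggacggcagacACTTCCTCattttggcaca
Hpgds: gcttttaggtgGAGGAAGTggcctctggct
The windows lie at chr1:87620281-87620310 on the plus strand (Inpp5d), chr3:95526773-95526802 on the plus strand (Ctss), chr3:106790125-106790154 on the minus strand (Cd53), chr4:136893091-136893120 on the minus strand (C1qc) and chr6:65144761-65144790 on the minus strand (Hpgds). Relative to the start site, the first base of the match was at -20 in Inpp5d, -2 in Ctss, 6 in Cd53, -195 in C1qc and -49 in Hpgds. In the GENCODE M21 annotation of the same build, 17 of the 30 bases for Ctss, 25 of those for Cd53 and all 30 for Hpgds lie in an exon. A match is a description of letters and shows no binding.

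The group means of the summed level of the 32 genes lay between 2162 and 3213 CPM, while single libraries of SFN-fed cKOAstro lay between 612 and 5331 CPM. The summed level was 2266, 2251, 3023 and 3386 CPM in the ConAstro libraries (2732 ± 566, SD, n = 4). In SFN-fed ConAstro it was 4581, 3120, 3971, 1611 and 2784 CPM (3213 ± 1141, n = 5), with the highest value in replicate 1, the library that goes against its label. The cKOAstro libraries ranged from 775 over a median of 2179 to 4418 CPM (2346 ± 1371, n = 7), and the SFN-fed cKOAstro libraries from 612 over a median of 989 to 5331 CPM (2162 ± 2144, n = 7). All 4 groups overlapped, and both the lowest and the highest library of the series belonged to SFN-fed cKOAstro.

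**Figure D1:**
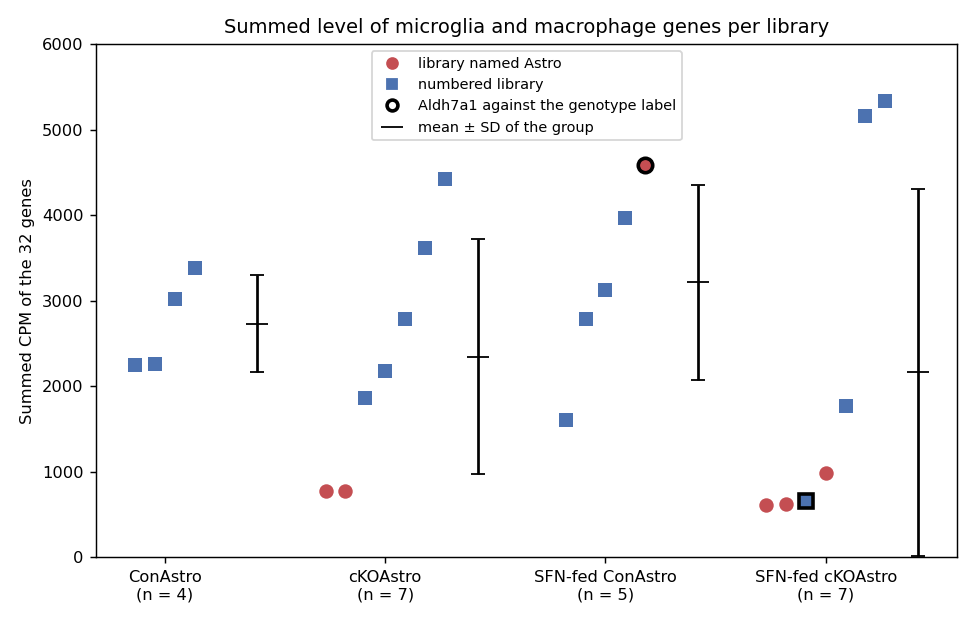
Summed CPM of the 32 genes (vertical axis) in each library of the 4 groups (horizontal axis), with red circles for libraries named Astro, blue squares for numbered libraries, a black outline for the 2 libraries whose Aldh7a1 goes against the genotype label, and the mean ± SD of each group beside the points. The libraries named Astro sit between 612 and 989 CPM, except for the outlined one in SFN-fed ConAstro at 4581 CPM, and the outlined numbered library in SFN-fed cKOAstro sits among them at 661 CPM.

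Within the groups the libraries divided by name. The 2 Astro libraries of cKOAstro held 775 and 778 CPM, below the 1867 to 4418 CPM of its 5 numbered libraries. The 3 Astro libraries of SFN-fed cKOAstro held 612, 620 and 989 CPM, and its 4 numbered libraries 661, 1766, 5158 and 5331 CPM. The numbered library at 661 CPM was the one labelled as replicate 2, and the single Astro library of SFN-fed ConAstro, labelled as replicate 1, held 4581 CPM. Thus both exceptions to the division by name were the libraries whose Aldh7a1 level went against their genotype label. No Astro library was present in ConAstro, and the labels do not say what the name stands for. Without those 2 libraries, the 5 Astro libraries spanned 612 to 989 CPM and the 16 numbered libraries 1611 to 5331 CPM.

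The names of numbered libraries open with 1 of 5 numbers. Those opening with 141 held 2788 to 4418 CPM (n = 3), with 145 3120 and 3971 CPM, with 146 1867 and 2179 CPM, with 147 1611 to 2784 CPM (n = 3) and with 143 661 to 5331 CPM (n = 7). Within cKOAstro the 3 libraries opening with 141 lay above both opening with 146, and within SFN-fed ConAstro both opening with 145 lay above both opening with 147. In SFN-fed cKOAstro the library opening with 147 held 1766 CPM, and those opening with 143 held 661, 5158 and 5331 CPM. The one at 661 CPM was replicate 2, whose Aldh7a1 goes against its label. Without it, the library opening with 147 lay below both opening with 143. Over all groups, those opening with 143 then spanned 2251 to 5331 CPM. None of these differences was tested. All ConAstro names open with 143, the numbered cKOAstro names with 141 or 146, and the numbered SFN-fed ConAstro names with 145 or 147. The numbered SFN-fed cKOAstro names open with 143 or 147. Opening number therefore cannot be fully separated from genotype or diet. As a share of all counts the members took 0.0612% to 0.522% of a library.

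**Figure D2:**
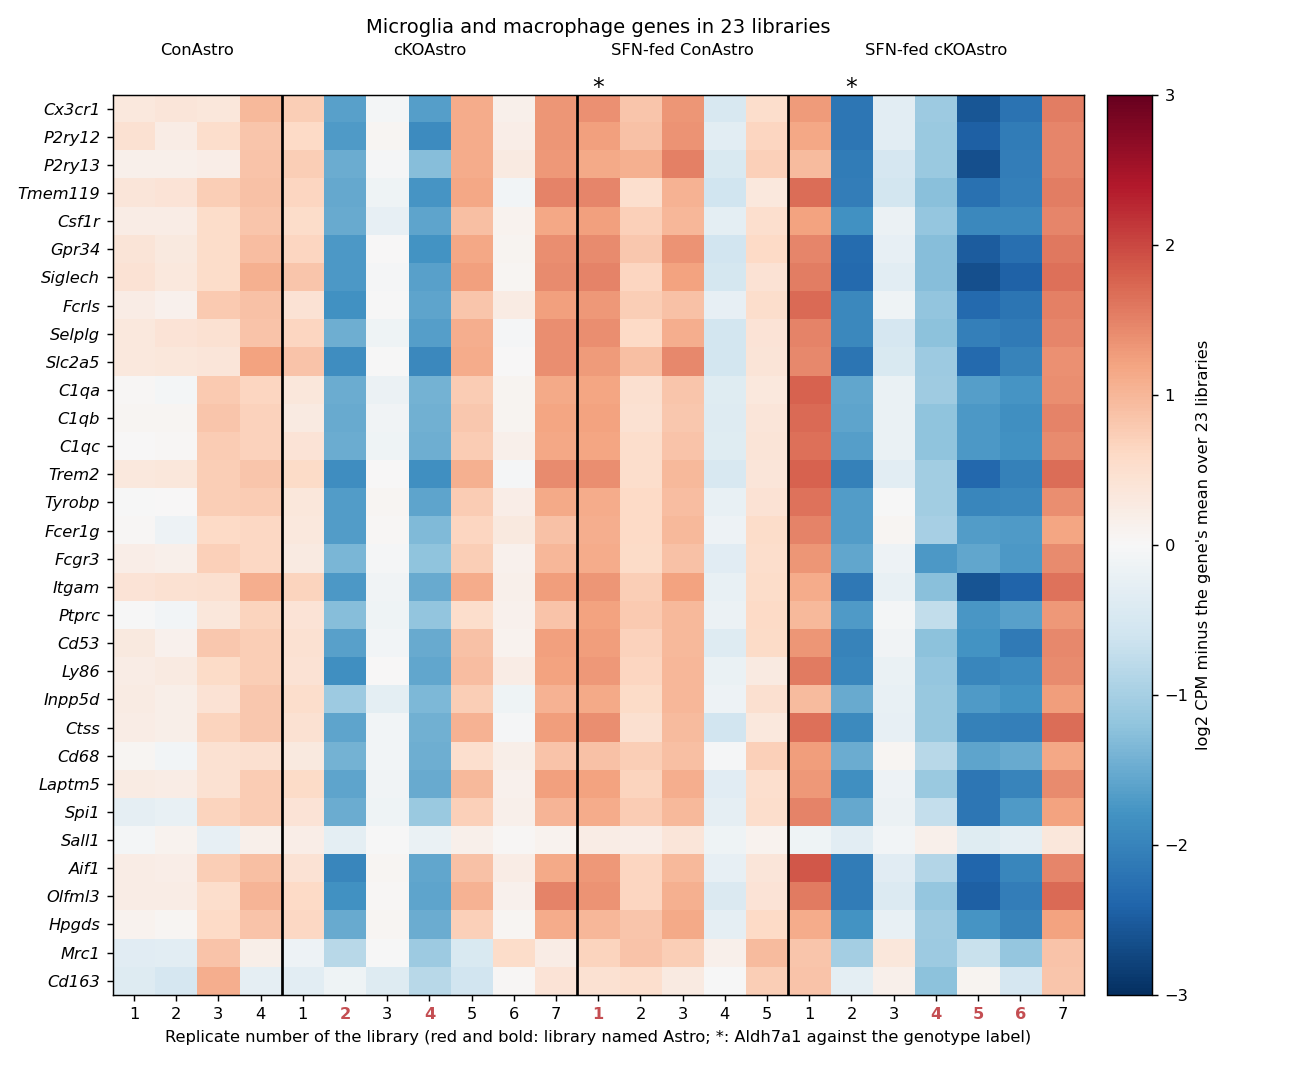
Heat map of the 32 genes (rows) in 23 libraries (columns, by group and replicate number), coloured by log2 CPM minus the mean of the gene over all libraries. Blue columns in cKOAstro (replicates 2 and 4) and SFN-fed cKOAstro (replicates 2, 4, 5 and 6) run through 29 of the genes, while the row of Sall1 stays pale and those of Mrc1 and Cd163 follow the columns less closely.

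The surface receptors that define resident microglia had wide ranges over the libraries. Cx3cr1, the receptor for fractalkine, was at 164, 171, 167 and 259 CPM in ConAstro and at 340, 237, 334, 95.0 and 190 CPM in SFN-fed ConAstro. It ranged from 41.8 over a median of 147 to 330 CPM in cKOAstro and from 22.4 over a median of 62.2 to 386 CPM in SFN-fed cKOAstro. The lowest values of both groups with Cre were in Astro libraries, and the 4 groups overlapped.

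P2ry12, a receptor for ADP that steers microglial processes, was at 95.0, 80.1, 99.2 and 122 CPM in ConAstro and at 163, 127, 174, 55.4 and 108 CPM in SFN-fed ConAstro. In cKOAstro it ranged from 18.7 over a median of 78.7 to 171 CPM, and in SFN-fed cKOAstro from 12.6 over a median of 31.6 to 191 CPM. Its low libraries were those of Cx3cr1, and the ratio of P2ry12 to Cx3cr1 within a library stayed between 0.448 and 0.593. P2ry13, a second ADP receptor, and P2ry12 kept a ratio between 0.275 and 0.516.

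Tmem119, a membrane protein used as a marker of resident microglia, was at 86.0, 88.8, 112 and 123 CPM in ConAstro and at 185, 94.0, 138, 44.1 and 82.4 CPM in SFN-fed ConAstro. It ranged from 19.6 over a median of 63.2 to 188 CPM in cKOAstro and from 14.2 over a median of 27.8 to 213 CPM in SFN-fed cKOAstro. Its highest library, SFN-fed cKOAstro replicate 1, and its lowest, replicate 5, came from the same group.

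Csf1r, the receptor for the growth factors CSF1 and IL-34, had the highest counts of the set, up to 252987 in a library. It was at 400, 401, 498 and 610 CPM in ConAstro, at 803, 556, 685, 277 and 483 CPM in SFN-fed ConAstro, from 114 over a median of 364 to 764 CPM in cKOAstro and from 89.2 over a median of 152 to 948 CPM in SFN-fed cKOAstro. Of all members its profile over the 23 libraries was nearest to the median profile of the set, with a mean absolute difference of 0.050 on the log2 scale. On the annotation used here, 873 bases of its exons overlap Hmgxb3 on the opposite strand, and whether counting used the strand is not stated. For P2ry12 the overlap, with Med12l, was 9 bases.

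The other receptors and transporters of resident microglia were Gpr34 (a receptor for lysophosphatidylserine), Siglech (a lectin for sialic acids), Fcrls (a relative of Fc receptors), Selplg (the ligand of P-selectin) and Slc2a5 (a fructose transporter). Over the 10 genes of this role, the highest library held 10.6 (Csf1r) to 19.6 times (Siglech) the level of the lowest.

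The C1q chains, which together form the recognition molecule of the classical complement pathway and whose genes are neighbours on chromosome 4, were among the 5 genes of the set with the highest levels per length, and C1qa and C1qb led. Medians over libraries were 134 CPM per kilobase of exon for C1qa, 127 for C1qb and 64.9 for C1qc, with Ctss at 113 and Csf1r at 69.5. C1qa was at 134, 126, 227 and 206 CPM in ConAstro and at 297, 184, 234, 102 and 164 CPM in SFN-fed ConAstro. It ranged from 46.5 over a median of 140 to 289 CPM in cKOAstro and from 38.5 over a median of 62.5 to 446 CPM in SFN-fed cKOAstro, so the groups overlapped. The 3 chains kept nearly fixed proportions in every library. The ratio of C1qb to C1qa, of CPM values, lay between 0.917 and 1.09, and that of C1qc to C1qa between 0.786 and 0.921.

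Trem2, a receptor for lipids and lipoproteins, and Tyrobp, the adaptor through which it signals, were low in the same libraries. Trem2 was at 29.4, 29.8, 39.6 and 42.1 CPM in ConAstro and at 62.3, 34.3, 46.2, 16.8 and 30.4 CPM in SFN-fed ConAstro. It ranged from 6.51 over a median of 23.8 to 62.8 CPM in cKOAstro and from 4.61 over a median of 11.4 to 80.3 CPM in SFN-fed cKOAstro. The 4 groups overlapped.

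Tyrobp was at 19.7, 19.8, 32.9 and 33.6 CPM in ConAstro and at 42.9, 30.2, 37.5, 17.1 and 27.0 CPM in SFN-fed ConAstro. Its ranges were 6.21 over a median of 22.9 to 43.8 CPM in cKOAstro and 5.10 over a median of 9.66 to 61.6 CPM in SFN-fed cKOAstro. The ratio of Trem2 to Tyrobp lay between 0.904 and 1.5, and that of Fcer1g, the adaptor of Fc receptors, to Tyrobp between 0.483 and 0.715.

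Ptprc, the phosphatase CD45 of leukocytes, had the lowest level per length, with a median of 0.816 CPM per kilobase of exon. Its length was that of all annotated exons merged, 18313 bases, and the rank depends on this choice. It was at 13.5, 12.9, 17.2 and 21.8 CPM in ConAstro, at 31.3, 23.5, 27.0, 12 and 20.5 CPM in SFN-fed ConAstro, from 5.63 over a median of 14.9 to 24.5 CPM in cKOAstro and from 4.04 over a median of 8.19 to 33.7 CPM in SFN-fed cKOAstro. Further members of the immune signalling role were Fcgr3 (a receptor for IgG), Itgam (the integrin CD11b), Cd53 (a tetraspanin), Ly86 (a partner of a Toll-like receptor relative) and Inpp5d (the inositol phosphatase SHIP1). Over these 9 genes the highest library held 8.23 (Inpp5d) to 18.5 times (Itgam) the level of the lowest. The lysosomal members, Ctss (cathepsin S), Cd68 (a glycoprotein of phagocyte lysosomes) and Laptm5 (a lysosomal membrane protein), had ranges of 13.2, 7.19 and 12 times. Among the other products, the range was 18.7 times for Aif1 (the actin-binding protein IBA1), 17.7 times for Olfml3 (a secreted protein) and 9.23 times for Hpgds (a prostaglandin D synthase).

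The 2 transcription factors of the set behaved differently. Spi1, which encodes PU.1, was at 8.59, 9.01, 16.6 and 17.7 CPM in ConAstro and at 22.4, 17.8, 20.4, 8.67 and 15.1 CPM in SFN-fed ConAstro. It ranged from 3.71 over a median of 11.6 to 21.2 CPM in cKOAstro and from 2.33 over a median of 6.36 to 29.4 CPM in SFN-fed cKOAstro. The range of Spi1 over all libraries was 12.6 times, like that of the receptors.

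Sall1, a zinc finger factor known for its part in microglial identity, was at 122, 135, 107 and 142 CPM in ConAstro and at 148, 145, 163, 117 and 136 CPM in SFN-fed ConAstro. It ranged from 104 over a median of 130 to 144 CPM in cKOAstro and from 98.6 over a median of 116 to 161 CPM in SFN-fed cKOAstro. The highest library held 1.65 times the level of the lowest, the smallest range of the set. The ratio of Sall1 to Cx3cr1 therefore ran from 0.360 to 4.40 between libraries, so most counts of Sall1 in the libraries with little Cx3cr1 did not go along with the rest of the set. Whether another cell type gave these counts was not tested.

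Both macrophage receptors of the brain's borders varied less than the microglial genes. Mrc1, the mannose receptor CD206, was at 72.8, 74.0, 166 and 103 CPM in ConAstro and at 146, 166, 153, 102 and 177 CPM in SFN-fed ConAstro. In cKOAstro it ranged from 43.4 over a median of 82.4 to 134 CPM, and in SFN-fed cKOAstro from 41.1 over a median of 57.5 to 165 CPM. Its 6 lowest libraries were the 5 Astro libraries of the cKOAstro and SFN-fed cKOAstro groups and replicate 2 of SFN-fed cKOAstro as labelled.

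Cd163, the scavenger receptor for haemoglobin bound to haptoglobin, was at 21.8, 20.2, 61.1 and 23.8 CPM in ConAstro and at 39.2, 40.2, 34.2, 28.2 and 47.9 CPM in SFN-fed ConAstro. It ranged from 16 over a median of 23 to 37.7 CPM in cKOAstro and from 12.2 over a median of 30.0 to 51.8 CPM in SFN-fed cKOAstro. ConAstro replicate 3 stood above the other ConAstro libraries in Cd163 and Mrc1 but not in Cx3cr1. The ratio of Mrc1 to Cx3cr1 ran from 0.235 to 2.56 over all libraries, against 0.448 to 0.593 for P2ry12 to Cx3cr1. The ranges over all libraries were 4.30 times for Mrc1 and 4.99 times for Cd163, against 7.19 times or more for the 29 members other than these 2 and Sall1.

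When each gene's profile over the 23 libraries was set against the median profile of the set, the mean absolute difference was 0.262 or less on the log2 scale for those 29 members. It was 0.58 for Mrc1, 0.74 for Cd163 and 0.77 for Sall1. The median over the 14181 genes with a mean of at least 1 CPM was 0.92. Each member helped to form the median profile and genes outside the set did not, so these values are not fully comparable. Among genes outside the set, those near to that profile included Pld4, Vav1, Itgb2, Clec5a, Gna15, Blnk, Abcc3, Myo1f and Hk3, at 0.083 to 0.119. Vav1 is an exchange factor of haematopoietic cells and Itgb2 the beta chain that pairs with the product of Itgam. The means of these genes lay between 3.85 CPM (Clec5a) and 34.4 CPM (Pld4).

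The name of the library was then tested across all genes in the 3 groups that hold Astro libraries (6 Astro and 13 numbered libraries, 19 in all), with the group as a covariate, by the quasi-likelihood test of edgeR with Benjamini-Hochberg adjustment. The 32 genes were all lower in Astro libraries, with a median log2 fold change of -1.43 against 0.02 over all 17969 genes. Of the members 31 had an unadjusted p under 0.05, a share that 22.9% of all genes reached. After adjustment 1 member passed, Mrc1 (log2 fold change -0.92 ± 0.25, SE, adjusted p = 0.0483), as did 562 genes in all, of which 221 were lower (1.23% of genes). By DESeq2 22 members passed, all lower (5.79% of genes were called lower), and Tmem119, C1qa, C1qb, C1qc and Trem2 were among the 10 that did not. The call of Mrc1 lay close to the threshold. In 15 of the 19 fits that left out 1 library no member passed, among them the fit without cKOAstro replicate 2. Over the 19 fits the log2 fold change of Mrc1 lay between -1.21 and -0.83.

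Without the 2 libraries whose Aldh7a1 goes against the label, the difference by name was larger. The 2 include the only Astro library of SFN-fed ConAstro, so all Astro libraries left were labelled cKOAstro or SFN-fed cKOAstro. The median of the members was -2.42 against 0.02 over all genes, and 30 of 32 members were called, all lower, while 8.6% of 17539 genes were called lower. The microglial receptors led, with Siglech at -2.81 ± 0.42 (adjusted p = 0.000249), Trem2 at -2.77 ± 0.40 (adjusted p = 0.000212), Tmem119 at -2.66 ± 0.41 (adjusted p = 0.000353), P2ry12 at -2.61 ± 0.37 (adjusted p = 0.000190) and Cx3cr1 at -2.60 ± 0.40 (adjusted p = 0.000311). C1qa fell by 2.30 ± 0.33 (adjusted p = 0.000208), Csf1r by 2.36 ± 0.32 (adjusted p = 0.000161) and Tyrobp by 2.44 ± 0.30 (adjusted p = 9.63e-05).

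Differences were smaller for Spi1 (-2.06 ± 0.33, adjusted p = 0.000445), Ptprc (-1.86 ± 0.27, adjusted p = 0.000237) and Mrc1 (-1.32 ± 0.19, adjusted p = 0.000203). Cd163 (-0.69 ± 0.24, adjusted p = 0.0608) and Sall1 (-0.26 ± 0.11, adjusted p = 0.134) did not pass. When cKOAstro replicate 2 was left out as well, 31 members were called (6.73% of 17875 genes were called lower), with a median of -2.46 and Sall1 as the exception.

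**Figure D3:**
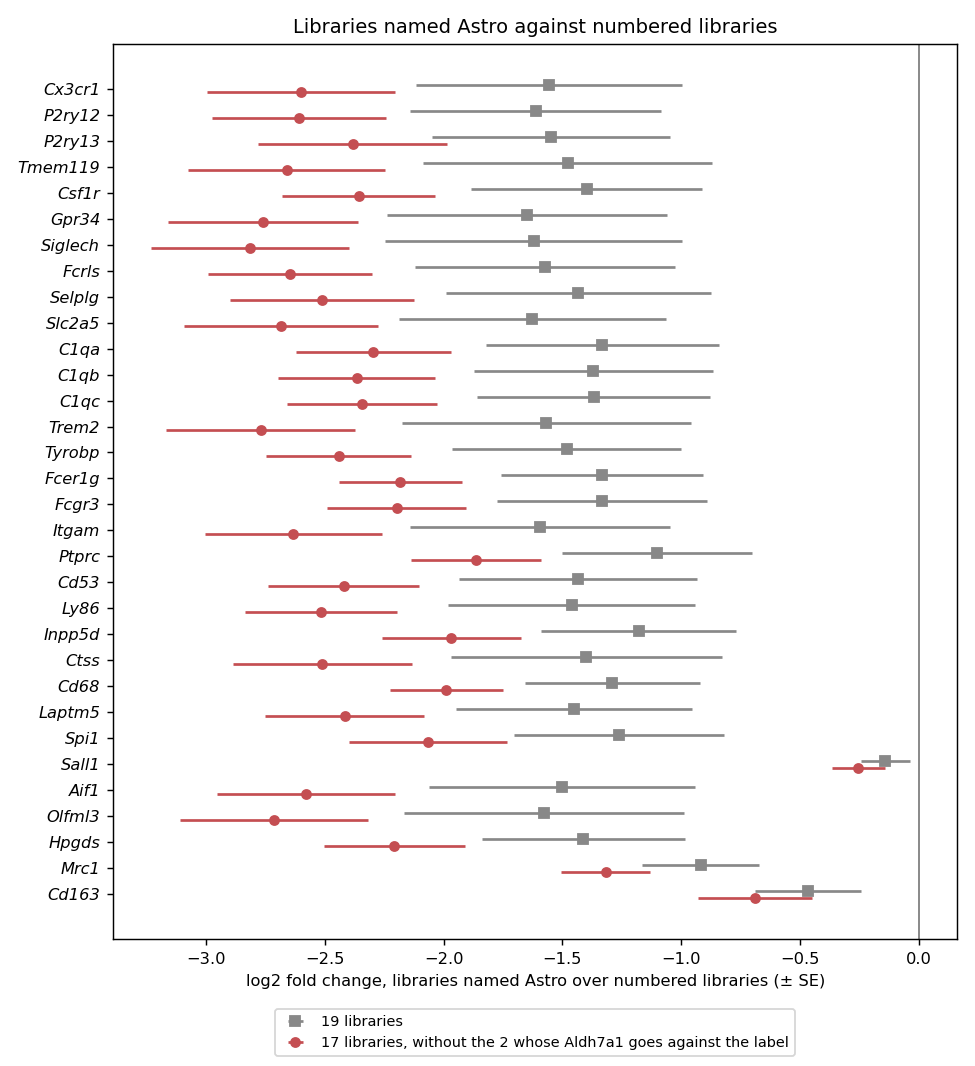
The log2 fold change of each member (vertical axis) between libraries named Astro and numbered libraries (horizontal axis, ± SE), in 19 libraries (grey squares) and in the 17 libraries left without the 2 whose Aldh7a1 goes against the label (red circles). Every point lies below 0, those of Sall1, Cd163 and Mrc1 nearest to it.

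The difference was also present inside single groups, where genotype and diet as labelled are the same. In the 7 cKOAstro libraries, every Astro library lay below every numbered one in 31 of the 32 genes (13.7% of 17302 genes did so), with Cd163 as the exception. A fit on these 7 libraries called 29 members lower, with a median of -2.15, where 2.98% of genes were called lower, and Sall1, Mrc1 and Cd163 were the exceptions. Of the 2 Astro libraries there, replicate 2 is the one labelled male that held Xist at 1541 CPM. In the 7 SFN-fed cKOAstro libraries only Fcgr3 showed no overlap (5.2% of genes), and edgeR called no gene (0%), with 31 members and 11.2% of genes at an unadjusted p under 0.05. Without its replicate 2, the library that goes against the label, 31 of the 32 genes showed no overlap there (12.7% of genes), Sall1 being the exception, and 18 members were called lower (1.58% of genes).

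Other lists of genes were read in the same fits, in all 19 libraries and in the 17 left without the 2 that go against the genotype label. Of 29 further microglial genes, 1 was called lower in the 19 libraries (median -1.26) and all 29 in the 17 libraries (median -2.16). They included Itgb5, an integrin chain, which had an adjusted p of 0.0890 in 19 libraries and was at -0.67 ± 0.12 (adjusted p = 0.000830) in 17. Of 12 border macrophage genes, 6 were called lower in 19 libraries (median -0.95) and all 12 in 17 (median -1.32). The scavenger receptor Stab1, the most abundant of them, passed in both (adjusted p = 0.0431 in 19 libraries; -1.56 ± 0.18, adjusted p = 6.67e-05, in 17). Lyve1, a hyaluronan receptor, passed in 17 libraries (-1.02 ± 0.31, adjusted p = 0.0322) and not in 19 (adjusted p = 0.320).

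Of 18 genes of activated microglia, 3 were called lower and none higher in 19 libraries (median -0.43), and 9 lower and 1 higher in 17 (median -0.74). The one called higher in 17 libraries was Spp1, osteopontin, at 1.22 ± 0.37 (adjusted p = 0.0313, and 0.125 in 19). In the 17 libraries Axl (-0.32 ± 0.12, adjusted p = 0.0874) and Cd9 (-0.03 ± 0.10, adjusted p = 0.885), the most abundant of the list, did not pass. The summed level of this list stayed between 497 and 671 CPM in all 23 libraries. It came mostly from Axl and Cd9, with means of 303 and 230 CPM, against 13.5 CPM for Spp1, the next gene. The sum therefore says little of the other genes of the list. Ligands of microglial receptors summed to 575 to 755 CPM, and of the 10 none was called in 19 libraries and 1 in 17, lower. In 17 libraries the growth factor Csf1 was at 0.21 ± 0.12 (adjusted p = 0.277) and Gas6, a ligand of Axl, at -0.06 ± 0.14 (adjusted p = 0.832). Genes of blood leukocytes were near 0, at 1.48 to 6.64 CPM for 12 genes together, and Ccr2, a chemokine receptor of monocytes, was called lower in 17 libraries at -0.88 ± 0.26 (adjusted p = 0.0291), and not in 19 (adjusted p = 0.116).

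Markers of other brain cells were read in the same fits. In all 19 libraries, where 1.9% of genes were called higher and 1.23% lower, 2 of 5 fibroblast genes were called lower and 1 of 11 dissociation response genes, Hspa1b, higher (adjusted p = 0.0453). None of the oligodendrocyte, oligodendrocyte precursor, endothelial, mural, astrocyte, neuronal or ependymal genes was called there, with 6 of 10, 4 of 4, 5 of 9, 3 of 7, 4 of 10, 0 of 8 and 0 of 5 at an unadjusted p under 0.05. In the 17 libraries, where 6.95% of genes were called higher and 8.6% lower, 3 of 10 oligodendrocyte genes were called higher in Astro libraries (median 0.37), 3 of 4 oligodendrocyte precursor genes lower (median -0.96), 2 of 9 endothelial genes lower (median -0.47), 3 of 5 fibroblast genes lower (median -0.97) and 1 of 10 astrocyte genes higher (median -0.04). Of 7 mural cell genes 1 was called in each direction (median -0.20), of 11 dissociation response genes 3 lower (median -0.30), and of 8 neuronal, 5 ependymal and 1 tested red blood cell genes none was called. The summed oligodendrocyte level was 28376 to 61048 CPM in the 5 Astro libraries and 23786 to 32795 CPM in the 16 numbered ones. The part of these other cells in the members' levels was not tested.

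**Figure D4:**
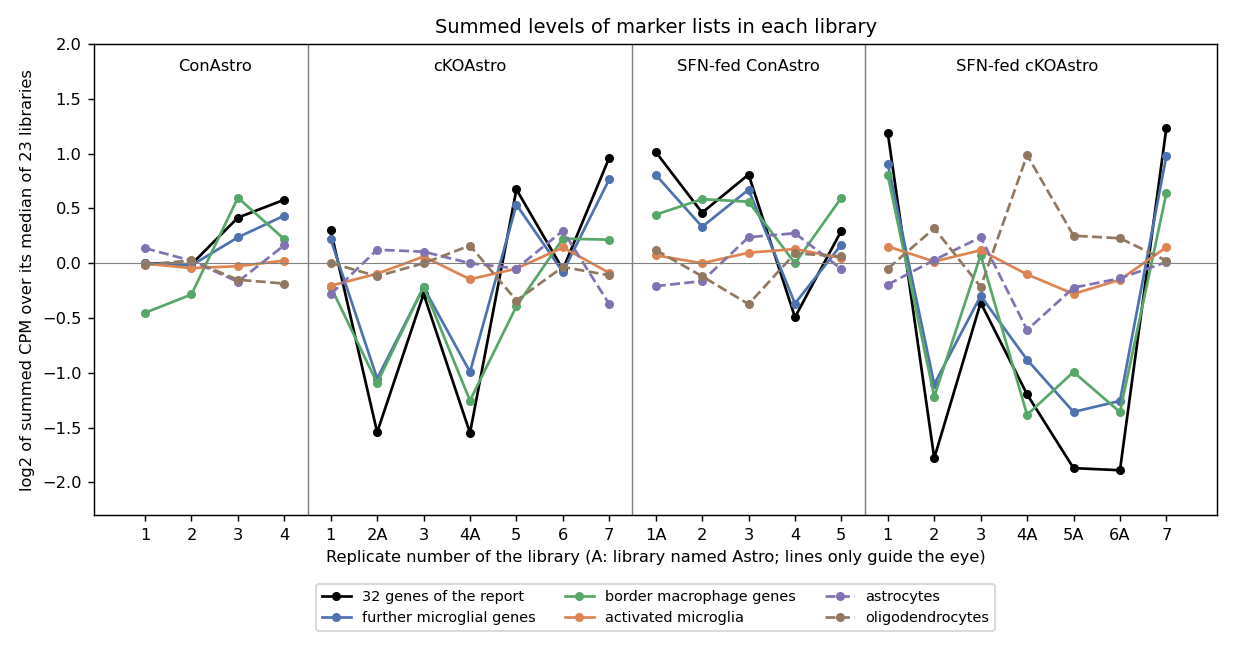
Summed CPM of 6 gene lists in each library (horizontal axis, by group and replicate number), as the log2 ratio to the list's median over 23 libraries (vertical axis); lines join libraries of a group only to guide the eye. The 32 genes, the further microglial genes and the border macrophage genes drop together in the same libraries, and the lists of activated microglia and astrocytes stay near 0 in most. The sum of the activated microglia list comes mostly from Axl and Cd9.

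Genotype on the control diet was compared in cKOAstro against ConAstro. The median log2 fold change of the members was -0.22, against -0.01 over all 17406 genes, with 30 of the 32 genes negative. None of the 32 passed (edgeR, lowest adjusted p = 0.981; none at an unadjusted p under 0.05, which 3.74% of all genes reached; none by DESeq2, which called 0.0383%), while 4 of all genes did (0.023%). The members with the lowest p were Cd163 (-0.37 ± 0.31), Mrc1 (-0.35 ± 0.31) and Fcgr3 (-0.29 ± 0.39). Without ConAstro replicate 3 the value of Cd163 became 0.17. The 2 Astro libraries are both in cKOAstro, and among numbered libraries alone the median was 0.14, with 30 of 32 genes positive. These numbered libraries share no opening number between the groups, so that number cannot be told apart from genotype there. Leaving out 1 library at a time, the median lay between -0.47 (without cKOAstro replicate 7) and -0.05 (without cKOAstro replicate 2).

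Under the SFN diet, SFN-fed cKOAstro was compared with SFN-fed ConAstro. All 32 members were negative, with a median of -0.61 against 0.01 over all 16672 genes, and none passed (edgeR, lowest adjusted p = 0.288; none at an unadjusted p under 0.05, which 20.3% of all genes reached; none by DESeq2, which called 1.5%). edgeR called no gene in all (0%). Lowest in p were Mrc1 (-0.72 ± 0.38), Sall1 (-0.24 ± 0.13) and P2ry13 (-1.04 ± 0.67). The median was -0.26 without the 2 libraries whose Aldh7a1 goes against the label, and 0.44 in the numbered libraries that remained, where 29 of 32 genes were positive. Leaving out 1 library at a time, it lay between -1.02 (without SFN-fed cKOAstro replicate 1) and -0.42.

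The diet in mice without Cre was compared in SFN-fed ConAstro against ConAstro. All 32 genes were positive, with a median of 0.21 against -0.01 over all 16509 genes, and none passed (edgeR, lowest adjusted p = 0.769; none at an unadjusted p under 0.05, which 6.54% of all genes reached). DESeq2 called none of the 32 and 0.14% of genes, with 2 members and 7.27% of genes at an unadjusted p under 0.05. The share of all genes that edgeR called was 0%. Lowest in p were Cd68 (0.42 ± 0.20), Mrc1 (0.50 ± 0.26) and Ptprc (0.47 ± 0.26). Leaving out replicate 1 of SFN-fed ConAstro, which goes against its label and is also the only Astro library of this comparison, the median was 0.07, with 21 of 32 genes positive. The libraries left share no opening number between the groups, so that number cannot be told apart from the diet there. The highest median with 1 library left out was 0.38, without SFN-fed ConAstro replicate 4.

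The diet in mice with Cre was compared in SFN-fed cKOAstro against cKOAstro. The median was -0.11 against 0.01 over all 16903 genes, with 26 of the 32 genes negative, and none passed (edgeR, lowest adjusted p = 0.626; none at an unadjusted p under 0.05, which 10.9% of all genes reached; none by DESeq2, which called 0.0881%). edgeR called 0% of all genes. Lowest in p were Cd163 (0.34 ± 0.28), P2ry13 (-0.52 ± 0.64) and Sall1 (-0.08 ± 0.11). In the numbered libraries that go with their label the median was 0.44, with 31 genes positive. Those libraries share no opening number between the groups either. Without cKOAstro replicate 2 and SFN-fed cKOAstro replicate 2, the median was -0.10. The direction turned with single libraries, from a median of -0.53 without SFN-fed cKOAstro replicate 1 to 0.13 without cKOAstro replicate 7.

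SFN-fed cKOAstro against ConAstro, which differ in both genotype and diet, gave 32 negative values with a median of -0.34, against -0.01 over all 16753 genes. None passed (edgeR, lowest adjusted p = 0.748; none at an unadjusted p under 0.05, which 8.67% of all genes reached; none by DESeq2, which called 0.0391%), and edgeR called 0% of all genes. Inpp5d (-0.54 ± 0.58), Hpgds (-0.54 ± 0.63) and Itgam (-0.63 ± 0.76) had the lowest p. Among numbered libraries alone the median was 0.21, and 0.55 without replicate 2 of SFN-fed cKOAstro, with all 32 genes positive. Leaving out 1 library at a time, it lay between -0.77 (without SFN-fed cKOAstro replicate 1) and -0.15 (without SFN-fed cKOAstro replicate 5). These comparisons share groups of libraries, so their values are not independent of each other.

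The interaction of genotype and diet, the difference between the genotype effects on the 2 diets, had a median of -0.37 over the members, against -0.004 over all 17302 genes, and called none of them (edgeR, lowest adjusted p = 0.740; none at an unadjusted p under 0.05, which 7.32% of all genes reached; none by DESeq2, which called 0.0141%). edgeR called 0% of all genes. Sall1 (-0.25 ± 0.17), P2ry13 (-1.07 ± 0.90) and Ptprc (-0.58 ± 0.72) had the lowest p. The median was -0.08 without the 2 libraries that go against the genotype label and 0.36 in the numbered libraries among the rest. Leaving out 1 library at a time, it lay between -0.78 (without SFN-fed cKOAstro replicate 1) and -0.18 (without cKOAstro replicate 7). The direction of the members' median thus changed with the libraries used, except for the diet in mice without Cre. There it stayed positive, between 0.07 and 0.38 with 1 library left out. In no comparison of genotype or diet did a member pass the adjusted threshold.

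**Figure D5:**
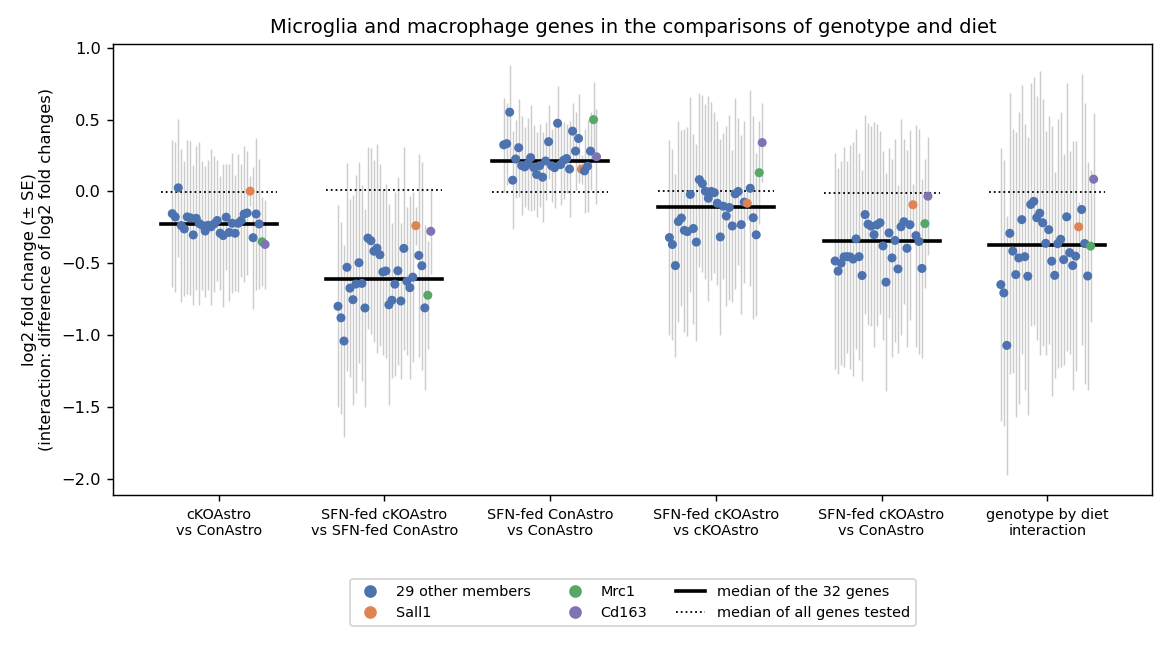
The log2 fold change of each member (vertical axis, grey bars ± SE) in the 5 comparisons of groups and the interaction (horizontal axis), in the order of the members in the heat map, with the median of the 32 genes as a thick line and the median of all genes tested as a dotted line. Medians of the members run from -0.61 to 0.21, the bars of most members cross 0, and Sall1 has a much shorter bar than the other genes.

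Genes of the further lists were not called either. Of the 29 further microglial genes, 18 genes of activated microglia, 12 border macrophage genes and 10 ligands, none was called by edgeR or by DESeq2 in any of the 5 comparisons or the interaction. At an unadjusted p under 0.05 there were 6 of 18 activated microglia genes in SFN-fed ConAstro against ConAstro, with a median of 0.53, beside 6.54% of all genes. In the same comparison there were 3 of 29 further microglial genes, 1 of 12 border macrophage genes and 1 of 10 ligands. Without replicate 1 of SFN-fed ConAstro there were 3 of 18 activated microglia genes (median 0.41), 0 of 29 further microglial genes, 1 of 12 border macrophage genes and 1 of 10 ligands, beside 8.41% of all genes. In SFN-fed cKOAstro against SFN-fed ConAstro there were 3 of 18 activated microglia genes, 2 of 12 border macrophage genes and 1 of 10 ligands, beside 20.3% of all genes, and without the 2 libraries 0, 2 and 0, beside 14.9%. In SFN-fed cKOAstro against cKOAstro there was 1 activated microglia gene, and without replicate 2 of SFN-fed cKOAstro there were 2 (6.94% of all genes). The other comparisons had none.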

How the data were processed

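RNA was sequenced by the study from ACSA-2-sorted cortical cells, with 1 library per sample of 4 groups. Per the labels, the authors aligned reads to mm10 with STAR, and the deposited values are raw counts of reads per gene symbol for each library, with no normalization. Aligner version, annotation and use of strand are not given in the sources used here.

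The main test was edgeR's quasi-likelihood F test (edgeR 4.0.16, limma 3.58.1, R 4.3.3) after TMM normalization and filterByExpr (minimum count 10, minimum total 15), each comparison on its own groups, with Benjamini-Hochberg adjustment over all genes tested and a threshold of 0.05. Fold changes are on the log2 scale with the SE taken as the fold change over the square root of F. The log2 CPM used for profiles carries a prior count of 2. All 32 members passed the filter in every comparison; their lowest count in a library was 137. Alternatives were DESeq2 1.42.0, RLE normalization, no filter beyond 1 count, the replicate number as a block, leaving out each library, and the choices of libraries named in the report, of which those that leave out cKOAstro replicate 2, use 1 group alone, or join the name with the 2 libraries, were added after seeing the data. The fits were tested on simulated data in which genes varied independently at 1 fixed dispersion. That test does not cover shifts that the members share within a library.

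The members and lists were chosen with earlier results of these data known. Named are 12 members by role (Cx3cr1, P2ry12, Tmem119, Csf1r, C1qa, Trem2, Tyrobp, Ptprc, Spi1, Sall1, Mrc1 and Cd163), the 3 members of lowest p per comparison, members past the threshold, the 10 genes nearest to the median profile and up to 4 abundant genes per list, of which some are not reported here; Siglech and the members named for their range or without overlap were named after their values were seen. Libraries of a group differed by far more than counting noise (lowest chi-square per degree of freedom 41.9 over 58 pairs). Depth of 46890715 to 391701247 counts gives precise counts, and p-values measure the spread between libraries, which the labels do not tie to litters or days. Exon lengths and overlaps come from GENCODE M21 (23379 of 24411 symbols matched), with the exons of all transcripts of a gene merged. A description of protein sequences was not done here.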

Additional observations from a re-analysis of the deposited data

Results flagged for a closer look

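In 52 tests of the highest and lowest library within a group (the summed level of the 32 genes and 12 members in 4 groups), 2 libraries lay further from the rest than Dixon's 95% limit allows. ConAstro replicate 4 held Cx3cr1 at 259 CPM, above the other 3 ConAstro libraries. ConAstro replicate 3 held Cd163 at 61.1 CPM, above the other 3. Chance gives about 1 such library in 20 groups, so 2 in 52 is not more than that.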

How the results depend on the processing

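No alternative called a member in any comparison of groups or in the interaction, and the summed level of the groups moved by less than 1 SD when the share of all counts replaced normalised CPM. DESeq2 called 8, 250, 24, 15, 8 and 3 genes in these comparisons, in the order of the report, and 1903 genes with 22 members between Astro and numbered libraries. Leaving out 1 library at a time, genotype on the control diet called 2 to 4 genes (2 without ConAstro replicate 4), with Cd163 between -0.53 and 0.17. Genotype under SFN called 0 to 701 genes (701 without SFN-fed cKOAstro replicate 3), diet without Cre 0 to 1, SFN-fed cKOAstro against ConAstro 0 to 2, and the name of the library 0 to 1880 genes and 0 to 30 members, with a median of -2.27 to -1.26. Without SFN-fed ConAstro replicate 1 the name called 30 members and 1684 of 17674 genes. Without SFN-fed cKOAstro replicate 2 it called 21 members and 1880 of 17940 genes. Without SFN-fed ConAstro replicate 4 it called 2 members and 485 of 18118 genes.

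Between Astro and numbered libraries, the counts of genes and members were 2728 and 30 without the 2 libraries that go against the genotype label, 1974 and 31 without 3 libraries (median -2.46), 1052 and 30 in the cKOAstro and SFN-fed cKOAstro groups together, 954 and 29 in cKOAstro, 0 and 0 in SFN-fed cKOAstro, and 300.0 and 18 there without replicate 2 (median -2.73). With no filter beyond 1 count 0 members passed, while 417 of 21260 genes did. The replicate number as a block called 1 gene in cKOAstro against ConAstro and 0 genes and 0 members by library name. In cKOAstro against ConAstro the block moved the members' median from -0.22 to -1.14 (lowest adjusted p = 0.930, edgeR). There 19 members and 674 of 17406 genes had an unadjusted p under 0.05. For genotype under SFN it moved the median from -0.61 to -1.37 (lowest adjusted p = 0.153, edgeR). There 31 members and 3668 of 16672 genes had an unadjusted p under 0.05. The other medians under the block were 0.22 for the diet without Cre, -0.46 for the diet with Cre, -0.98 for SFN-fed cKOAstro against ConAstro, -0.47 for the interaction and -1.05 by library name. Same-numbered libraries did not deviate together (correlations of -0.21 to 0.34, above 0.1 in 0 of 4 to 2 of 4 pairs), so the numbers were not read as pairs.

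Without the libraries that go against the genotype label (both in genotype under SFN and the interaction, only SFN-fed cKOAstro replicate 2 where SFN-fed ConAstro was not compared), 2 genes were called for genotype under SFN and 2 for SFN-fed cKOAstro against ConAstro. Both counts were also 2 with the name as a covariate and 2 in numbered libraries alone, with medians of 0.46 and 0.44 for genotype under SFN. The diet with Cre called 4 genes in those numbered libraries. Signs changed for Fcgr3 in genotype on the control diet (0.044 in numbered libraries, 0.034 with the name as a covariate). In SFN-fed cKOAstro against ConAstro, the numbered libraries gave Inpp5d 0.0064 and Hpgds 0.020, and the covariate gave Inpp5d 0.016, Hpgds 0.030 and Itgam 0.0088. Without SFN-fed cKOAstro replicate 2, the covariate gave Inpp5d 0.34, Hpgds 0.37 and Itgam 0.38 and the numbered libraries 0.33, 0.36 and 0.36. With that library left out, the diet with Cre gave Sall1 at 0.013 (covariate) and P2ry13 at 0.073 (numbered), and without both the interaction gave Ptprc at 0.11 (numbered). The cause of these changes was not tested. Over the 12 members named by role, 30 of 204, 29 of 252, 16 of 204, 72 of 288, 57 of 240 and 48 of 396 alternative values differed in sign, in the order of the comparisons, none past the threshold, and 0 of 348 by library name. The diet comparison without Cre could not be fitted with the name as a covariate and SFN-fed ConAstro replicate 1 left out, since no Astro library remained. Each member had 137 counts or more in every library, so counting error was small beside the spread between libraries.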
